A study of Rattus norvegicus with 28 samples.

Results

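The 9 genes described here carry the signal of the insulin-like growth factors (IGFs) into the muscle fibre. They are the ligands Igf1 and Igf2, the binding proteins Igfbp3 and Igfbp5, the receptor Igf1r, the adaptors Irs1 and Irs2 and the kinases Akt1 and Akt2. They were chosen by gene symbol, and each was represented by 1 probe set among the 26208 probe sets of the table, so that all 9 members were measured. RNA came from the proximal part of the gastrocnemius of 28 female Sprague-Dawley rats and was hybridised to Affymetrix Rat Gene 1.0 ST arrays, 1 array per rat. The 23 experimental rats were kept under isoflurane anaesthesia, mechanically ventilated and paralysed with α-cobrotoxin, a cobra venom protein that stops transmission from nerve to muscle, given as 100 µg intravenously on the first day and then as 250 µg per day. They form the groups 0.25-4d (from 6 h to 4 days, n = 13), 5-8d (n = 4) and 9-14d (n = 6). The 5 sham controls underwent anaesthesia and surgery, breathed spontaneously, received no blocker according to the methods and were killed soon after surgery, so that they carry neither the immobility nor the length of the intervention. One label field of the control samples also mentions the blocker and the ventilation, and every ratio below rests on the other labels and the methods. The rats are described as young adults, with no exact age.

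IGF-1 and IGF-2 bind the IGF-1 receptor, whose tyrosine kinase phosphorylates the insulin receptor substrates IRS1 and IRS2. These recruit phosphatidylinositol 3-kinase, which brings Akt to the membrane, and active Akt promotes protein synthesis through mTOR and keeps FoxO transcription factors out of the nucleus. In skeletal muscle the pathway is known for its part in growth and in the uptake of glucose, while FoxO factors switch on genes of protein breakdown. Binding proteins in the extracellular fluid hold the ligands and set how much reaches the receptor. The arrays measured messenger RNA, so that neither the amount of protein nor its phosphorylation was seen.

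The values used were, for each probe set and duration, the log2 ratio of the group to the sham controls and its p-value adjusted by Benjamini-Hochberg over all probe sets in limma, a linear model with a pooled estimate of the spread. Signals of single rats were not used here, which leaves out any value per rat, level per length or background, and the muscle's own marker genes were seen as ratios and not as levels. The standard error (SE) and the 95% confidence interval of each ratio were recovered from the ratio and its p-value. A probe set passed the test at an adjusted p below 0.05, and was called up- or down-regulated where the fold change was also at least 2. The 3 comparisons share the same 5 controls and are therefore not independent of each other.

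The adaptor genes Irs1 and Irs2 were lower at every duration, Irs1 the most, with log2 ratios of -2.06 and -1.95 at 5-8d and 9-14d, whereas the receptor gene Igf1r and the kinase genes Akt1 and Akt2 were higher at 5-8d and 9-14d. The ligand and binding protein genes did not pass the test against the controls at any duration. At 0.25-4d, 0 of the 9 genes was called up- or down-regulated by the adjusted p of limma and the fold change minimum together, beside 0.549% of all probe sets. An unadjusted p below 0.05 was found for 6 of the 9. The share of all probe sets below that unadjusted threshold was not counted. At 5-8d 2 were called (Igf1r up-regulated and Irs1 down-regulated; 5.21% of all probe sets), and at 9-14d only Irs1 was (5.12% of all). Without a fold change minimum, 3 genes passed at 0.25-4d, all lower, where 2.06% of all probe sets passed as lower and 1.49% as higher, with 0 of the 9 genes among the latter. At 5-8d 3 passed as higher and 2 as lower, with shares over all probe sets of 14.9% and 11.4%. At 9-14d the counts were again 3 higher and 2 lower, against 17.3% and 18.2%. The median log2 ratio of the 9 genes was -0.24, -0.30 and 0.34 at the 3 durations, beside medians of -0.01, -0.04 and -0.07 over all probe sets.

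**Figure D1:**
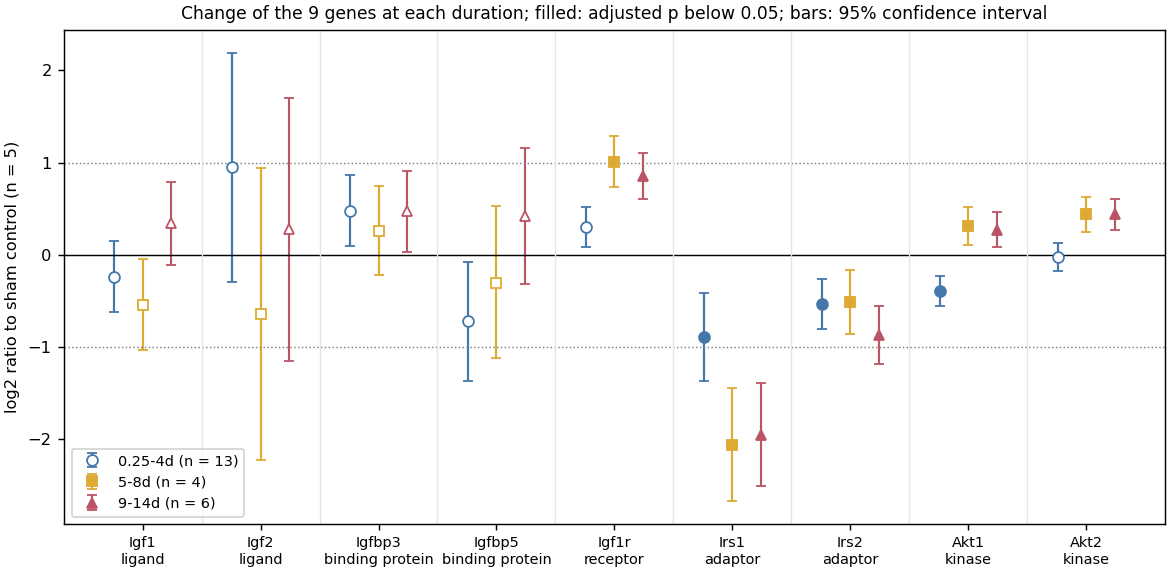
Log2 ratio to the 5 sham controls (vertical axis) of each of the 9 genes at 0.25-4d (circles, n = 13), 5-8d (squares, n = 4) and 9-14d (triangles, n = 6), with 95% confidence intervals as bars; filled symbols have an adjusted p below 0.05 and the dotted lines mark a 2-fold change. Irs1 lies below 0 at all 3 durations and near -2.06 and -1.95 at the later ones, Igf1r, Akt1 and Akt2 lie above 0 at the later ones, and the bars of Igf2 are the widest.

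The promoters of Irs1 and Igf1r are shown because these were the called genes, one in each direction. Each is the 250 bases before the start of the gene in RefSeq on the build GRCr8, written in the direction of the gene, with every GC box (the letters GGGCGG, sought on both strands) in capitals. The Irs1 window is chr9:91053960-91054209 on the minus strand and the Igf1r window is chr1:130959747-130959996 on the plus strand.
Irs1: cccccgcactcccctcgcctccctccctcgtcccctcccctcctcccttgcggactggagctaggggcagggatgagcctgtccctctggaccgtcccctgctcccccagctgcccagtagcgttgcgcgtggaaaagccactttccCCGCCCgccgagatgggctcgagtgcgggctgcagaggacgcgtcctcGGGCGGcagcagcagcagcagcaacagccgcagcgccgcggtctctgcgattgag
Igf1r: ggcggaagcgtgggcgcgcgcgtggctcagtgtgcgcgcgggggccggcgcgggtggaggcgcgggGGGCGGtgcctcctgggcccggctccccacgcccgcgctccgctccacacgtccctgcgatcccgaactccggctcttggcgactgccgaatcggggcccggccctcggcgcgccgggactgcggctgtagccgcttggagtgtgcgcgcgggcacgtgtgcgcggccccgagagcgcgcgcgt

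Both windows are rich in G and C, with 70.8% for Irs1 and 79.6% for Igf1r beside a median of 51.2% over all 33469 promoters of the same length. The GC box occurred at 2 places in the Irs1 window and at 1 in the Igf1r window, and 30.5% of all promoters hold at least 1. The E-box CAGCTG, a sequence bound by myogenic factors that reads the same on both strands, occurred once in the Irs1 window and not in that of Igf1r, and 12% of all promoters hold it. The FoxO core motif TGTTTAC, sought on both strands, was in neither window, and 3.21% of all promoters hold it. These matches describe the letters of the windows and do not show that a factor binds there. RefSeq promoters were matched for 8 of the 9 genes, all but Irs2.

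The ligand gene Igf1 (probe set 10894695, RGSC 3.4 chromosome 7, 24531690 to 24605603, plus strand) encodes a growth factor that muscle makes for itself as well as receiving it from the liver. Its log2 ratio was -0.24 (SE 0.19) at 0.25-4d, -0.54 (SE 0.24) at 5-8d and 0.34 (SE 0.22) at 9-14d, with adjusted p of 0.594, 0.103 and 0.222 in limma. None of these passed, and the 95% interval at 5-8d ran from -1.03 to -0.04. The durations did differ from each other, since Igf1 was 0.58 log2 units higher at 9-14d than at 0.25-4d (95% interval 0.21 to 0.94, adjusted p = 0.0129), a 1.49-fold difference. The step from 5-8d to 9-14d was larger, at 0.88 (0.40 to 1.36), but missed the threshold when adjusted over all probe sets (adjusted p = 0.0788).

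Macrophages can also make IGF-1, and markers of macrophages and other leukocytes were measured on the same arrays. At 9-14d 7 of 11 such markers were higher by the adjusted p (median log2 ratio 1.03, range -0.17 to 1.51), among them Cd68 at 1.51 and Csf1r at 1.07. At 5-8d 0 of 11 passed in limma and 1 had an unadjusted p below 0.05 (median -0.05), and at 0.25-4d Cd163 alone passed, at 1.01. The part of these cells in the Igf1 values was not tested. In whole muscle, more cells of a type and more RNA per cell cannot be told apart, for this and every gene below.

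Igf2 (probe set 10726999, chromosome 1, 202906624 to 202917031, minus strand), the growth factor of fetal tissues, had log2 ratios of 0.95 (SE 0.61), -0.64 (SE 0.77) and 0.28 (SE 0.70), with adjusted p of 0.462, 0.596 and 0.775. Its 95% interval at 0.25-4d reached from -0.29 to 2.19, so that changes of more than 2-fold upward lay inside it. The within-group SD of Igf2 was 1.15 log2 units, larger than that of 99.9% of all probe sets. The difference of -1.60 between 5-8d and 0.25-4d (95% interval -2.94 to -0.25) did not pass the adjusted test (adjusted p = 0.0861). Single rats with very high or low Igf2 could not be looked for in group ratios.

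The binding protein gene Igfbp3 (probe set 10778390, chromosome 14, 87959153 to 87967171, minus strand), the main carrier of IGFs in plasma, had log2 ratios of 0.48 (SE 0.19), 0.26 (SE 0.24) and 0.47 (SE 0.21), and adjusted p of 0.159, 0.459 and 0.0839. All 3 ratios were above 0 and all 3 intervals lay inside a 2-fold change, the widest reach upward being 0.91 at 9-14d. No pair of durations passed the test for Igfbp3, and the estimate of 9-14d minus 0.25-4d was -0.01 (95% interval -0.37 to 0.34). It was -0.22 (-0.63 to 0.19) for 5-8d minus 0.25-4d and 0.21 (-0.26 to 0.67) for 9-14d minus 5-8d.

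Igfbp5 (probe set 10928837, chromosome 9, 71999628 to 72016466, minus strand) is the binding protein that muscle cells themselves make in quantity. Its log2 ratios moved from -0.72 (SE 0.32) at 0.25-4d through -0.30 (SE 0.40) to 0.42 (SE 0.36) at 9-14d, and the adjusted p of 0.230, 0.645 and 0.374 did not pass. The contrast between the first and the last group, tested with the recovered SD, did pass. Igfbp5 was 2.21-fold higher at 9-14d than at 0.25-4d, a log2 difference of 1.14 (95% interval 0.54 to 1.75, adjusted p = 0.00369). Among the 12 other measured carriers and related genes, described further on, Igfbp6 was the one binding protein called.

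The receptor gene Igf1r (probe set 10707889, chromosome 1, 122704974 to 122990007, plus strand) was up-regulated later in the course. Its log2 ratio was 0.30 (SE 0.11) at 0.25-4d, which did not pass (adjusted p = 0.121). It was 1.01 (SE 0.14, adjusted p = 2.59e-06) at 5-8d and 0.85 (SE 0.12, adjusted p = 4.45e-06) at 9-14d, or 2.02-fold and 1.80-fold over control. The value at 5-8d lay just inside the fold change minimum and that at 9-14d just outside it, and the difference of -0.17 between them (95% interval -0.44 to 0.10, adjusted p = 0.616) did not pass the test. Both later groups lay above 0.25-4d, by 0.71 (adjusted p = 3.64e-05) and 0.55 (adjusted p = 9.78e-05). At 5-8d the ratio of Igf1r exceeded that of 97.6% of all probe sets.

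The adaptor Irs1 (probe set 10929390, chromosome 9, 81585251 to 81638071, minus strand) showed the largest change of the 9 genes at both later durations. Irs1 couples the insulin and IGF-1 receptors to phosphatidylinositol 3-kinase. Its log2 ratio was -0.89 (SE 0.23, adjusted p = 0.0291) at 0.25-4d, -2.06 (SE 0.30, adjusted p = 8.43e-06) at 5-8d and -1.95 (SE 0.27, adjusted p = 2.39e-06) at 9-14d. These are 1.86-fold, 4.16-fold and 3.85-fold lower than control, with 95% intervals of 1.33 to 2.59, 2.72 to 6.36 and 2.62 to 5.65. At each duration fewer than 1 in 100 probe sets had a lower ratio, namely 0.576%, 0.481% and 0.404%.

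Irs1 was lower in both later groups than at 0.25-4d. Between 0.25-4d and 5-8d it fell by a further 1.16 log2 units (95% interval -1.68 to -0.64, adjusted p = 0.0012), and the difference of 9-14d from 0.25-4d was -1.05 (-1.50 to -0.60, adjusted p = 0.000479). From 5-8d to 9-14d the difference was 0.11 with an interval of -0.48 to 0.70, so that a change of either sign remained possible there.

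Irs2 (probe set 10789653, chromosome 16, 83379511 to 83401903, plus strand), the other adaptor, was lower at every duration and by less than 2-fold. Its log2 ratios were -0.53 (SE 0.13), -0.51 (SE 0.17) and -0.87 (SE 0.15), or 1.44-fold, 1.42-fold and 1.82-fold lower, and all passed with adjusted p of 0.0232, 0.0265 and 7.51e-05. The first and the middle group differed by 0.02 (95% interval -0.28 to 0.32). Irs2 was lower at 9-14d than at 0.25-4d by -0.34 (-0.59 to -0.08, adjusted p = 0.037), and this call was lost, with adjusted p of 0.0945, when each comparison was centred on its median. Whether the Irs1 change exceeded that of Irs2 was not tested, because the table does not give how the 2 genes vary together.

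Akt1 (probe set 10892316, chromosome 6, 137640482 to 137657552, minus strand), a serine/threonine kinase of cell growth and survival, changed its direction between durations. It was lower at 0.25-4d, with a log2 ratio of -0.39 (SE 0.08, adjusted p = 0.00369), and higher at 5-8d and 9-14d, with ratios of 0.31 (SE 0.10, adjusted p = 0.0209) and 0.27 (SE 0.09, adjusted p = 0.0205). The changes were small, 1.31-fold down and then 1.24-fold and 1.21-fold up. The differences from 0.25-4d were 0.70 for 5-8d (95% interval 0.53 to 0.88, adjusted p = 5.16e-07) and 0.66 for 9-14d (0.51 to 0.81, adjusted p = 4.30e-08).

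Akt2 (probe set 10705394, chromosome 1, 82686233 to 82726565, plus strand), the form best known for the response of muscle to insulin, did not pass at 0.25-4d, where its log2 ratio was -0.02 with an interval of -0.17 to 0.13. It was 1.36-fold higher at 5-8d (log2 0.44, SE 0.09, adjusted p = 0.000679) and 1.35-fold higher at 9-14d (log2 0.44, SE 0.08, adjusted p = 0.000189). Both later groups exceeded 0.25-4d by 0.46 log2 units, with adjusted p of 8.17e-05 and 6.24e-06. Akt1 and Akt2 had within-group SDs of 0.149 and 0.138, and only 9.09% and 4.24% of all probe sets had a smaller one. The SD was 0.599 for Igfbp5 and 1.15 for Igf2. At 0.25-4d their ratios of -0.72 and 0.95 did not pass, although they were larger in size than the -0.39 of Akt1, which passed.

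Set side by side, 4 of the 9 genes (Igf1r, Irs1, Akt1 and Akt2) differed between 5-8d and 0.25-4d, where 21.3% of all probe sets did. Between 9-14d and 0.25-4d 7 differed, all but Igf2 and Igfbp3, where 35.5% of all probe sets did. Between 9-14d and 5-8d 0 of the 9 genes passed by the recovered statistics, where 0.408% of all probe sets did, although Igf1 and Irs2 had unadjusted p of 0.000734 and 0.0374. With 4 and 6 rats the SE of that last difference ranged from 0.09 for Akt2 to 0.74 for Igf2. For Akt1 and Akt2 the intervals of -0.24 to 0.16 and -0.19 to 0.18 kept the difference within narrow bounds, which was not so for Igf2 at -0.60 to 2.44.

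**Figure D2:**
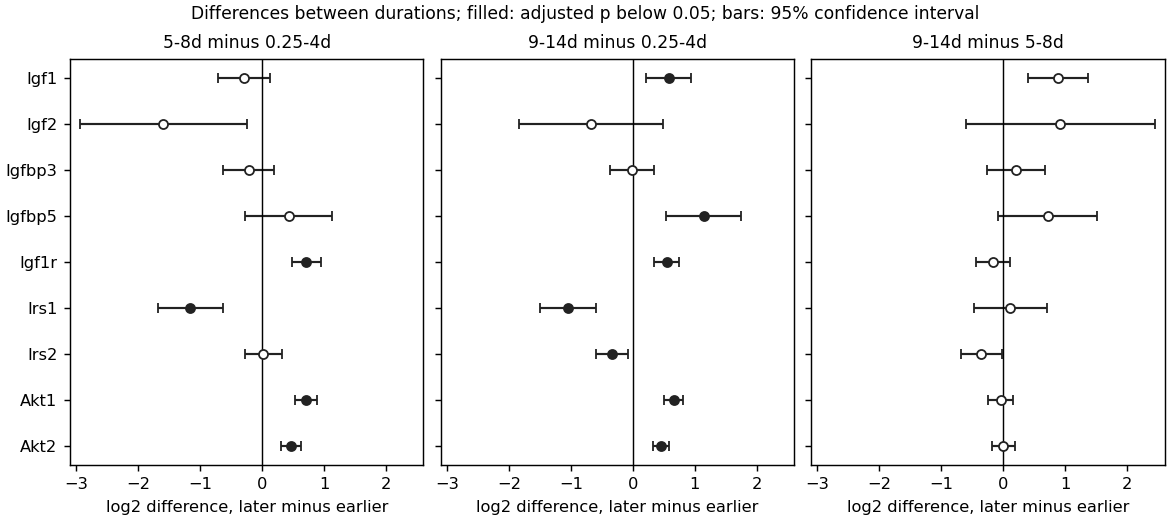
Log2 difference between durations (horizontal axis, later minus earlier) of the 9 genes, with 95% confidence intervals as bars and filled symbols where the adjusted p is below 0.05. The first and the middle panel hold 4 and 7 filled symbols, with Irs1 at -1.16 and -1.05, and the panel of 9-14d minus 5-8d holds none.

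Within the whole table the 9 genes spread over a wide range rather than sharing one place. At 5-8d they ran from Irs1 at -2.06 to Igf1r at 1.01, and at 9-14d from -1.95 to 0.85 for the same genes. The central 95% of all probe sets lay between -1.06 and 1.01 at 5-8d and between -0.94 and 1.07 at 9-14d. At 0.25-4d this range was narrower, from -0.50 to 0.46, and Irs1, Igfbp5, Irs2, Igfbp3 and Igf2 lay outside it, although of these only Irs1 and Irs2 passed the test.

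**Figure D3:**
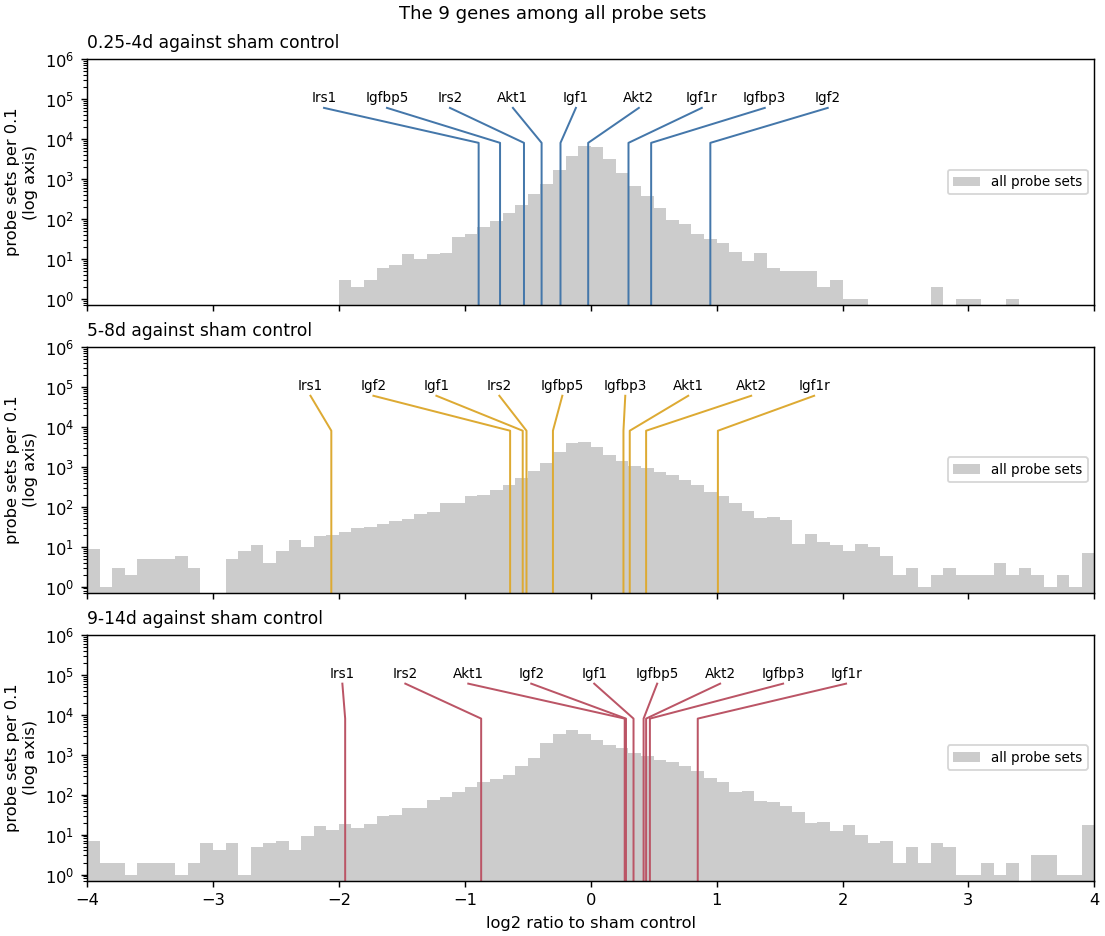
Number of probe sets per 0.1 log2 unit (vertical log axis) by log2 ratio to sham control (horizontal axis) at each duration, in grey for all 26208 probe sets, with a coloured line at the ratio of each of the 9 genes; the outermost bins also hold the values beyond them. Irs1 lies in the far lower tail at 5-8d and 9-14d, and Igf1r at the upper edge of the bulk at 5-8d.

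The probe sets nearest in pattern were found by the straight distance over the 3 log2 ratios, as a description over 3 durations that share their controls. Nearest to Igf1r were Cul4b (cullin 4B, a scaffold of ubiquitin ligases, 0.30, 0.99 and 0.89), Eri1 (an exoribonuclease, 0.35, 0.96 and 0.83) and Ppp2r3c (a regulatory subunit of protein phosphatase 2A, 0.29, 0.98 and 0.91), at distances of 0.06, 0.07 and 0.08 log2 units. Nearest to Irs1 were RGD1561161 (a predicted gene, -0.79, -2.16 and -1.99), Ldhb (the lactate dehydrogenase B chain, -0.97, -1.92 and -1.94) and Hyal1 (a hyaluronidase, -1.03, -2.12 and -2.07), at 0.15, 0.16 and 0.19.

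Of the other genes of the pathway, 76 were listed by role and 71 were measured by a probe set of their own. At 0.25-4d 6 passed as higher and 4 as lower, at 5-8d 11 and 15, and at 9-14d 10 and 17. Over all probe sets the shares passing as higher and lower were 1.49% and 2.06%, then 14.9% and 11.4%, then 17.3% and 18.2%. With the fold change minimum 4, 10 and 7 were called, beside 0.549%, 5.21% and 5.12% of all probe sets. Their median log2 ratios of -0.01, -0.05 and -0.04 lay close to those of all probe sets. Between 5-8d and 0.25-4d 23 of the 71 differed (21.3% of all probe sets) and between 9-14d and 0.25-4d 34 (35.5% of all). Between 9-14d and 5-8d 0 passed by the recovered statistics (0.408% of all). An unadjusted p below 0.05 was found for 12 of the 71, and the same share over all probe sets was not counted.

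Among the other ligands and carriers, 0, 2 and 3 of 12 passed at the 3 durations, all lower. Of all probe sets 2.06%, 11.4% and 18.2% passed as lower. Igfbp6, a binding protein with a preference for IGF-2, had a log2 ratio of -0.30 (SE 0.31) at 0.25-4d and fell to -2.21 (SE 0.40, adjusted p = 0.000122) at 5-8d and -1.34 (SE 0.36, adjusted p = 0.00477) at 9-14d. Ghr, the growth hormone receptor through which IGF-1 production is stimulated, had -0.39 (SE 0.14, not passing) and then -1.42 (SE 0.18, adjusted p = 8.61e-07) and -1.22 (SE 0.16, adjusted p = 8.80e-07). Both were lower at 5-8d than at 0.25-4d, by -1.91 and -1.03.

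Fibroblasts are a known source of Igfbp6, and some of their markers were lower in the same groups. Beside the marker counts below, 2.06%, 11.4% and 18.2% of all probe sets passed as lower at the 3 durations. As higher, 1.49%, 14.9% and 17.3% passed. At 5-8d 5 of 7 fibroblast markers were lower by the adjusted p (median log2 ratio -1.31, range -3.23 to -0.14), with Col1a1 at -3.23, while Dcn at -0.14 and Pdgfra at -0.32 did not pass. At 9-14d 3 of 7 were lower (median -0.66, range -2.18 to 0.37), while Pdgfra at 0.37 and Dcn at 0.06 had positive ratios that did not pass. At 0.25-4d 0 of 7 passed in limma or had an unadjusted p below 0.05. The part of fibroblasts in the Igfbp6 values was not tested. Of 4 satellite cell markers, 1 was higher at 9-14d by the adjusted p (Myf5 at 2.15) and 3 were lower, with Pax7 the lowest at -0.70. At 5-8d 1 was higher (Myf5 at 1.52) and 2 were lower. Of 8 muscle fibre markers, 6 were lower at 9-14d and 0 higher (median -0.39, range -3.73 to 0.13), with Acta1 at -0.29. At 5-8d 1 fibre marker was higher (Des at 0.22) and 2 were lower. Myh1 and Myh4 were listed too but had no probe set of their own. The part of satellite cells and muscle fibres in the values of the member genes was likewise not tested. Endothelial markers were lower in 3 of 5 at both later durations (medians -0.49 and -0.47), and 0 of 5 fat cell and 0 of 5 Schwann cell markers passed at any duration in limma, with 3 fat cell markers at an unadjusted p below 0.05 at 0.25-4d and 0 otherwise.

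Of the other receptors, 1 of 3 passed at each duration. Insr, the insulin receptor, was higher at 0.25-4d with a log2 ratio of 0.37 (adjusted p = 0.0469) and had 0.07 and -0.25 later, and Insrr was lower at 5-8d and 9-14d at -0.32 and -0.40. Of 12 other adaptors and receptor inhibitors, 0, 5 and 4 passed, of which 0, 2 and 2 were higher and 0, 3 and 2 lower. Shares over all probe sets were 1.49%, 14.9% and 17.3% higher and 2.06%, 11.4% and 18.2% lower. Shc1, which links the receptors to the MAP kinase branch, rose to 1.01 (SE 0.18, adjusted p = 0.000109) and 0.94 (SE 0.16, adjusted p = 5.17e-05), close to the values of Igf1r. Grb14, an adaptor that inhibits the insulin receptor, fell to -1.01 (SE 0.18, adjusted p = 0.000139) and -1.39 (SE 0.17, adjusted p = 2.25e-07). Grb10 also passed as lower at 5-8d and 9-14d, at -0.71 and -0.77, and Gab1 at 5-8d, at -0.52. Ptpn1 passed as higher at 5-8d and 9-14d, at 0.70 and 0.55.

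Among genes of phosphatidylinositol 3-kinase and the phosphatases that undo its product, 3 of 10 passed at each duration. In turn 1, 1 and 2 were higher and 2, 2 and 1 lower. Over all probe sets 1.49%, 14.9% and 17.3% passed as higher and 2.06%, 11.4% and 18.2% as lower. Pik3r1 was higher at 0.25-4d, at 0.93, and Pik3cd was lower at 0.25-4d and 5-8d, at -0.79 and -0.96. Inppl1 was lower at 0.25-4d, at -0.50, and Inppl1 and Inpp5d were higher at 9-14d, at 0.54 and 0.73. Pik3ip1, an inhibitor of the kinase, had 0.29 (SE 0.27) at 0.25-4d and fell to -1.16 (SE 0.34, adjusted p = 0.0117) and -0.81 (SE 0.31, adjusted p = 0.0403). Of the phosphatase and pseudokinase genes listed beside Akt, 1, 4 and 4 of 7 passed. In turn 0, 2 and 1 of them were higher and 1, 2 and 3 lower. The phosphatase gene Phlpp2 was higher at 5-8d and 9-14d, at 0.61 (SE 0.12, adjusted p = 0.000237) and 0.43 (SE 0.11, adjusted p = 0.00228). Trib2, a pseudokinase of the family that binds Akt, was lower throughout at -1.51 (SE 0.22, adjusted p = 0.000127), -1.94 (SE 0.28, adjusted p = 9.04e-06) and -1.52 (SE 0.26, adjusted p = 3.88e-05). Its relative Trib1 had -0.99 (SE 0.30, not passing), -1.31 (SE 0.38, adjusted p = 0.0112) and -1.09 (SE 0.35, adjusted p = 0.0155). The third gene of the family, Trib3, had -0.06, 0.09 and 0.16, none of which passed.

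Downstream of Akt, 5, 11 and 12 of 27 genes passed, of which 4, 6 and 5 were higher and 1, 5 and 7 lower. The shares of all probe sets were 1.49%, 14.9% and 17.3% higher and 2.06%, 11.4% and 18.2% lower. At 0.25-4d the transcription factor Foxo1 stood at 1.62 and Ddit4, an inhibitor of mTOR, at 1.40 (SE 0.36, adjusted p = 0.0247). At 5-8d and 9-14d Ddit4 had ratios of -0.52 and -0.38, which did not pass, and it was lower than at 0.25-4d by -1.93 (adjusted p = 0.000511) and -1.78 (adjusted p = 0.000143). Eif4ebp1, a repressor of translation that mTOR inactivates, rose to 1.45 (SE 0.21, adjusted p = 9.72e-05), 1.59 (SE 0.26, adjusted p = 4.98e-05) and 0.81 (SE 0.24, adjusted p = 0.00965). Slc2a4, which encodes the insulin-responsive glucose transporter GLUT4, had -0.06 (SE 0.21) and then fell to -1.55 (SE 0.27, adjusted p = 8.76e-05) and -1.56 (SE 0.24, adjusted p = 1.37e-05). Ddit4l, a relative of Ddit4, had -0.86 (SE 0.58), -2.85 (SE 0.74, adjusted p = 0.0047) and -2.30 (SE 0.67, adjusted p = 0.00878). Mtor passed as higher at 5-8d and 9-14d, at 0.62 and 0.41. So did Rps6kb2 (0.60 and 0.57), Rps6 (0.54 and 0.65) and Eif4b (0.39 and 0.40), while Eif4e passed as lower (-0.51 and -0.48). At 0.25-4d Foxo3 passed as higher, at 0.65, and Foxo6 as lower, at -0.36.

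**Figure D4:**
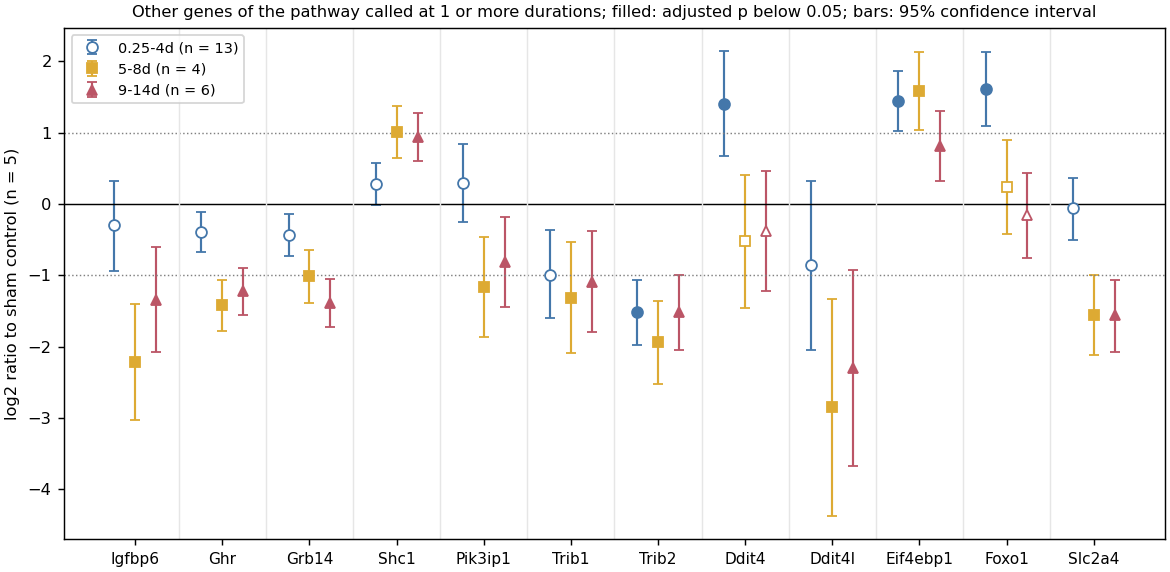
Log2 ratio to the 5 sham controls (vertical axis) of the 12 other genes of the pathway called at 1 or more durations, with circles for 0.25-4d, squares for 5-8d, triangles for 9-14d and 95% confidence intervals as bars; filled symbols have an adjusted p below 0.05. Foxo1 and Ddit4 are high at 0.25-4d alone, Shc1 is higher at the later durations, and Slc2a4, Ghr and Igfbp6 are lower there.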

How the data were processed

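Arrays of 28 rats were grouped by their sample type labels into sham controls (n = 5), 0.25-4d (n = 13), 5-8d (n = 4) and 9-14d (n = 6). According to the methods, the authors normalised the arrays by RMA and fitted 1 linear model in limma with 3 comparisons against the controls. The authors deposited the resulting log2 ratios and the p-values adjusted by Benjamini-Hochberg for 26208 probe sets. The first line of the table names lowess normalisation instead, and MAS5 is also among the submitters' processing notes. The values were used as deposited, and no values of other columns were used for any sample. These columns hold the authors' own comparisons, and a fit on single arrays, which had been planned, was not made here. The depth of an array and its background are therefore unknown, and the numbers of rats limit the precision. Nothing says whether the rats of a group were handled on separate days.

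The adjustment was undone by rank, and each raw p-value gave the moderated statistic of limma at the 1 number of degrees of freedom that gave the same within-group SD from all 3 comparisons. That number was 28.26, of which 24 are residual. The SD of a member had an error bound of at most 0.00621%, and 0 calls changed when the adjusted p was computed again. Differences between durations were tested with the same SD and adjusted over all probe sets. The code was tested on simulated data. A probe set passed at an adjusted p below 0.05 and was called at a fold change of at least 2 as well.

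For genes outside the 9, only probe sets with 1 symbol were used, those without cross-hybridisation first and then those with the most probes; Pik3ca shares its probe set with other genes. A further gene of the pathway is not reported here and is in no list or count. All 9 genes, every pathway gene called at 1 or more durations and the 3 probe sets nearest to a called member were named, with further pathway and marker genes named after their values were seen. The members, the pathway and marker lists and the alternatives were chosen with earlier results of these data known. Positions of probe sets are on RGSC 3.4 as in the table, and promoters are from RefSeq on GRCr8, read without conversion between the builds. Calculations ran in Python 3.11.15 with numpy 2.4.6, pandas 2.3.3 and scipy 1.17.1, and plots in matplotlib 3.10.9.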

Additional observations from a re-analysis of the deposited data

Results flagged for a closer look

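Of 27 differences between durations tested in the 9 genes, 11 had an adjusted p below 0.05 by the recovered statistics, which is what marked them for a closer look. Over all probe sets 21.3% passed for 5-8d minus 0.25-4d, 35.5% for 9-14d minus 0.25-4d and 0.408% for 9-14d minus 5-8d. All 11 differences of the 9 genes set a later group against 0.25-4d. As log2 differences of 5-8d minus 0.25-4d they were 0.71 for Igf1r, -1.16 for Irs1, 0.70 for Akt1 and 0.46 for Akt2. As log2 differences of 9-14d minus 0.25-4d they were 0.58 for Igf1, 1.14 for Igfbp5, 0.55 for Igf1r, -1.05 for Irs1, -0.34 for Irs2, 0.66 for Akt1 and 0.46 for Akt2. Igf1 and Igfbp5 differed in this way although neither passed against the controls at any duration, and the ratios of both changed sign, from -0.24 to 0.34 and from -0.72 to 0.42. Akt1 alone passed in both directions against the controls, at -0.39 and at 0.31 and 0.27. Outlying rats could not be looked for, since values of single rats were not used here.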

How the results depend on the processing

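Counts of called genes depended mainly on the fold change minimum. Without it, the counts at the 3 durations in turn were 3, 5 and 5 for the 9 genes and 10, 26 and 27 for the other pathway genes. With a minimum of 1.5, chosen after seeing the data, 1 of the 9 genes was called at 0.25-4d and 3 at 9-14d. A stricter threshold of 0.01, median centring, or adjustment over the 3 comparisons together left every count within 1.5 times. Adjustment over the 3 comparisons together let Igf1r pass at 0.25-4d (0.30, adjusted p = 0.0422) and the Igf1 difference of 9-14d minus 5-8d (0.88, adjusted p = 0.00741), and lost the Irs2 difference of 9-14d minus 0.25-4d (-0.34, adjusted p = 0.06), which centring also lost (-0.28, adjusted p = 0.0945). All other member changes and differences kept their side of the threshold under the alternatives run, and their direction except for differences close to 0 when centred (Igfbp3, 9-14d minus 0.25-4d, from -0.01 to 0.05, and Akt2, 9-14d minus 5-8d, from 0.00 to 0.03, neither passing). The alternatives included adjustment over probe sets with a symbol and, for the changes, leaving out cross-hybridising probe sets. Leaving out rats, another normalisation and a filter on dim probe sets were not run, as they need values of single arrays. No paired analysis was possible because each rat has a number of its own. Cell composition and duration cannot be told apart in these groups.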
